A study of Mus musculus with 4 samples.

Results

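Small RNAs that lie in 3' untranslated regions (3' UTRs) of wild type (WT) mouse liver and spleen were compared. All distinct sequences of both deposited lists were placed on the mouse genome, and each sequence was assigned to a protein-coding gene whose annotated 3' UTR covered at least 50% of it. A gene was counted in a tissue if it held 3 or more distinct sequences there. Of 19995 protein-coding genes with an annotated 3' UTR, 767 met this minimum in at least 1 tissue. Outside the Mir21 gene 3402 liver and 2024 spleen sequences lay in annotated 3' UTRs, and 3375 and 2016 of them in these 767 genes, of 7845 listed sequences in the whole series. The WT lists hold 4273 liver and 2634 spleen sequences, and those of Miwi2-/- mice hold 560 and 378. All 4 libraries were made from adult C57BL/6 mice, with 1 library for each tissue and genotype. The number of mice behind a library, and whether liver and spleen came from the same animal, is not given in the sources used here. The tissue difference therefore has no replicate check, and every interval given covers counting error only. MIWI2 is a Piwi protein, and its gene was disrupted in Miwi2-/- mice.

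The 3' UTR is the part of a messenger RNA after the stop codon. It carries the signals for cleavage and polyadenylation and binding sites for microRNAs and RNA-binding proteins. The liver is made up mostly of hepatocytes, which secrete plasma proteins and run lipid, amino acid and xenobiotic metabolism. The spleen filters blood and holds B cells, T cells, myeloid cells and erythroid cells.

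The lists do not measure expression. They give each distinct sequence without a read count, and they hold only sequences inside clusters that passed the authors' filter in that tissue. Each listed sequence lay inside a deposited cluster region of its own tissue (488 liver regions and 345 spleen regions), so a gene without sequences in a tissue is a gene without a cluster that passed there. Sparse sequences below that filter are not listed. The spleen library held 2.0 times as many uniquely aligned distinct sequences as the liver library, whereas the liver list outside Mir21 is 1.68 times as long as the spleen list. The share of the library that reached the list was 6.62% for liver and 2.04% for spleen. Ratios between the tissues are therefore given relative to the lists, and moving to library totals raises every liver to spleen ratio by 1.75 on the log2 scale. The labelled tissues were checked against 8 hepatocyte and 8 spleen markers. In the liver list 4 of the 8 hepatocyte markers reached 3 sequences (Scd1, Alb, Hnf4a and Ahsg), and Apoa1, Ttr, Cps1 and Cyp2e1 were at 0. None of the 8 hepatocyte markers was in the spleen list. None of the 8 spleen markers (Cd79b, Ms4a1, Pax5, Cd3e, Ptprc, Coro1a, Csf1r and Hba-a1) was in either list, so the defining markers of the spleen are absent and do not check its label.

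The following sequences show what the lists hold. They are written in the direction of the gene, with NCBIM37 positions, and capitals mark a base that differs from the genome. For each gene the sequence that overlapped the most others of that gene was taken. The first 4 come from liver-only genes and the next 4 from spleen-only genes, chosen among those with the most sequences, and the last 6 were found in both tissues letter for letter.
Scd1, chr19:44472216-44472243, minus strand: aataaatattttatttagctaggattaa
Alb, chr5:90905510-90905538, plus strand: aagactcaggactcatcttttctgttggA
Errfi1, chr4:150241927-150241952, plus strand: ctcttagagtaatctgtattcagaTc
Serpina3k, chr12:105583722-105583751, plus strand: tctgattggctgttccaaagttggcttaga
Etnk1, chr6:143153012-143153038, plus strand: ctaacaaataaggaaatgtgaattaga
Il6st, chr13:113294680-113294705, plus strand: aactgcaaaataaagctaaagacgaA
Ppp1r16b, chr2:158589324-158589346, plus strand: aatcaggacctgactagatctgA
Setd7, chr3:51324207-51324231, minus strand: acagtctggcttgtgacacacacaA
Trim25, chr11:88881030-88881048, plus strand: aaatggtgaaatggaaaag
Hist1h1c, chr13:23831406-23831422, plus strand: acttaagagctgtgaca
Mbnl1, chr3:60431251-60431272, plus strand: atatgccatttctgagacacaa
Dnmt3a, chr12:3911926-3911945, plus strand: actacaaggtcttcaggaac
Tnrc6b, chr15:80770478-80770501, plus strand: gacagaggaggagagagatcctgA
AI464131, chr4:41443374-41443397, minus strand: actgagttaggttgaacttgggaa

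The gene sets of the tissues were mostly separate. Of the 767 genes, 427 (55.7%) were liver-only, 289 (37.7%) were spleen-only and 51 (6.65%) were shared. The shared genes made up 10.7% of the 478 liver genes (Wilson 95% interval 8.21 to 13.8) and 15.0% of the 340 spleen genes (11.6 to 19.2). Shared genes accounted for 439 liver sequences (13%) and 537 spleen sequences (26.7%). In the list of the other tissue 425 of the 427 liver-only genes had 0 spleen sequences and all 289 spleen-only genes had 0 liver sequences. Sparse sequences below the cluster filter were not listed, so such a 0 does not show that the gene lacked small RNAs there. Another 23 genes had fewer than 3 sequences in each tissue and were left out of the classes.

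Most genes held few sequences. The median was 4 in both tissues, and 65.1% of liver genes and 72.1% of spleen genes held 3 to 5. There were 73 liver genes and 36 spleen genes with 10 or more sequences. The sequences of a gene were spread along its 3' UTR: after overlapping sequences were merged into blocks, the median gene had 3 blocks in each tissue, and the covered part of the 3' UTR had a median of 5.36% for liver genes and 4.41% for spleen genes.

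**Figure D1:**
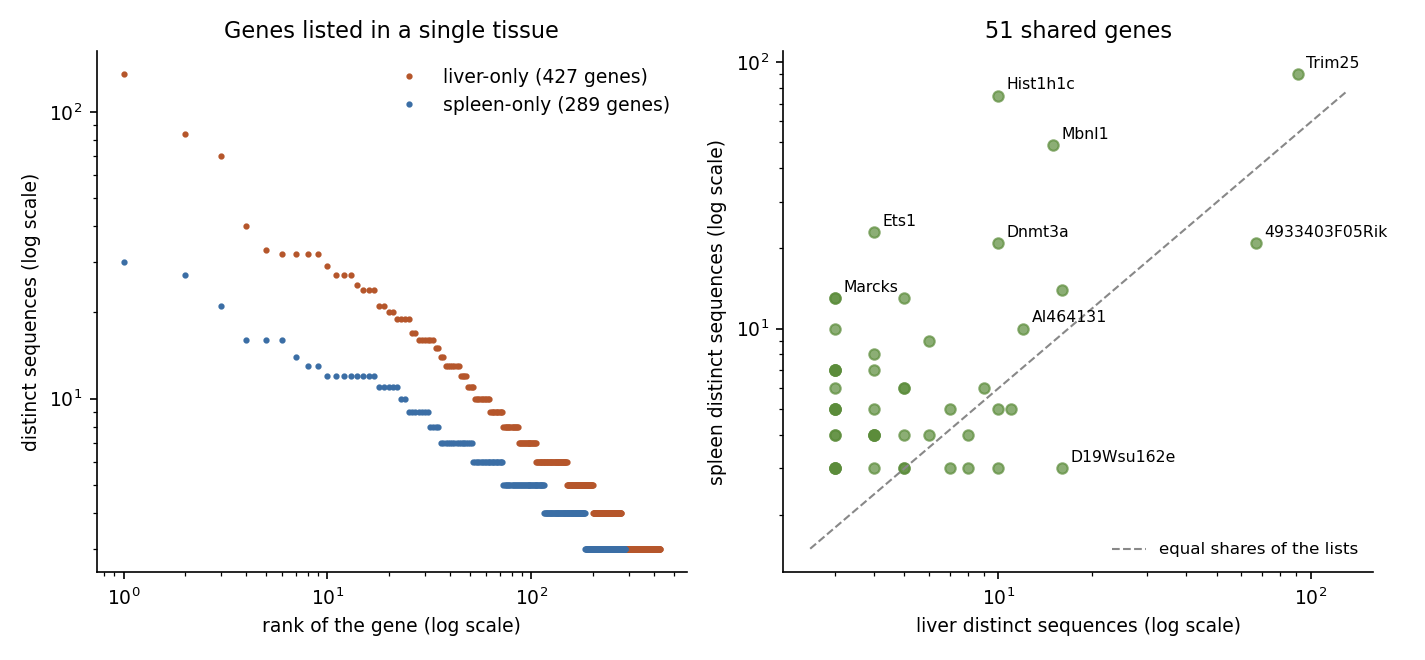
Distinct sequences per gene. The left panel plots the number of sequences against the rank of the gene (both log scales) for the 427 liver-only genes in orange and the 289 spleen-only genes in blue, and the largest liver gene, Scd1, holds 135 against 30 for the largest spleen gene, Etnk1. The right panel plots spleen against liver sequences (log scales) for the 51 shared genes, with a dashed line where a gene takes the same share of both lists.

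The liver-only genes were led by genes of hepatocyte metabolism and secretion. Scd1, the stearoyl-CoA desaturase that makes monounsaturated fatty acids, held 135 sequences in 45 blocks, which covered 50% of a 3' UTR of 3468 nt (chr19:44468941-44472408, minus strand). Alb, which encodes serum albumin, held 84 sequences in a single block that covered 84.7% of a 3' UTR of 170 nt. Errfi1, a feedback inhibitor of epidermal growth factor receptor signalling, held 70 in 20 blocks over 60.1% of 1390 nt. The spleen list held 0 sequences of all 3 genes. With the spleen set to a floor of 3 sequences, the share of the list was 26.8-fold higher in the liver for Scd1, 16.7-fold for Alb and 13.9-fold for Errfi1. The authors' filter also used the density relative to the coding region and per kb. An unlisted gene can therefore have held more than 3 sequences, and these folds are no lower bounds. Next came Mgst1, a microsomal glutathione transferase, with 40 sequences, and Uox, the urate oxidase of purine breakdown, with 33. Mat1a, which makes S-adenosylmethionine, and the serine protease inhibitor Serpina3k had 32 each. Density set these genes apart from one another: Alb held 494 sequences per kb of 3' UTR, Scd1 38.9 and Errfi1 50.4, against a median of 2.56 over the liver-only genes.

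The spleen-only genes with the most sequences held fewer than those of the liver. Etnk1, an ethanolamine kinase of phosphatidylethanolamine synthesis, held 30 sequences in 23 blocks over 12.1% of a 3' UTR of 5086 nt. Ubn2 held 27 in 19 blocks over 5.18% of 10476 nt. Tcf4, a basic helix-loop-helix transcription factor of B cells and plasmacytoid dendritic cells, held 21. Then came Il6st, the signalling receptor subunit shared by interleukin 6 family cytokines, the phosphatase regulator Ppp1r16b and the lysine methyltransferase Setd7, with 16 each. The focal adhesion gene Lpp held 14 and the ETS factor Etv3 13. The liver list held 0 sequences of these 8 genes. With the liver set to the floor of 3 sequences, the share of the list was 16.8-fold higher in the spleen for Etnk1 and 15.1-fold for Ubn2. By library totals these folds were 5.0 and 4.50. As for the liver genes, they are no lower bounds. Etnk1 held 5.90 sequences per kb of 3' UTR and Ubn2 2.58, against a median of 2.26 over the spleen-only genes.

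At a limit of 3-fold by shares of the lists, with numbers under 3 set to 3, 34 genes (4.43% of 767) were higher in the liver and 86 (11.2%) in the spleen. This limit asked for fewer sequences from spleen-only genes, since the floor was the same and the spleen list shorter. Thus 6 spleen sequences gave 3.35-fold (Abce1), whereas 13 liver sequences gave 2.58-fold (Adh1) and 16 gave 3.18-fold (Ahsg). The numbers 34 and 86 therefore do not show that more genes favoured the spleen. By library totals the same limit gave 212 genes higher in the liver and 4 in the spleen (Etnk1, Ubn2, Tcf4 and Hist1h1c). On that scale 5 liver sequences gave 3.33-fold (Actn1) and 12 spleen sequences 2.0-fold (Abl2). The classes rest on the deposited clusters, whose density limit was set relative to the number of aligned reads, so they depend on the library total as well.

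Gene lists of known function separated by tissue. Of 126 genes for secreted plasma proteins of hepatocytes, 27 reached the minimum and all 27 were liver-only. After Alb and Serpina3k, the most sequences were those of Saa1, an acute phase apolipoprotein (27), and Fgb, the fibrinogen beta chain (24). The amino acid, nitrogen and glucose list gave 19 of 103 genes, all liver-only, among them Uox, Mat1a and Tdo2, the tryptophan dioxygenase (21). The xenobiotic, bile and transporter list gave 24 liver-only genes and 1 shared gene (Cyb5, 8 liver and 4 spleen sequences) of 156. Its leading members after Mgst1 were the amino acid transporters Slc38a4 (25) and Slc7a2 (24) and the cytochrome Cyb5b (21). Of all protein-coding genes, 3.84% reached the minimum in some tissue, against 21.4%, 18.4% and 16% of these lists. The lists and their members were chosen with earlier results of these data known, which can raise such shares. The shares of the lists are therefore descriptive and no test.

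Lipid genes were found in both tissues. Of 126 lipid, fatty acid and sterol genes, 20 were liver-only, 3 spleen-only and 1 shared. Among the liver-only ones, Scd1 was followed by Stard4, a sterol carrier (29). The spleen-only ones were Etnk1, the cholesterol exporter Abca1 (8) and the lysosomal lipase Lipa (5), and the shared one was the elongase Elovl5 with 10 liver and 3 spleen sequences. The list of liver and circadian transcription factors gave 15 liver-only genes of 70, with Zhx3 (32), Hnf4a (19), Cebpa (16) and Onecut2 (15) holding the most. Its 4 spleen-only genes were Foxo1 (5), Tef (4), Nfe2l2 (3) and Stat5b (3). In all, 27.1% of this list reached the minimum, and this share too is descriptive.

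Immune and blood cell genes were fewer. None of 57 B cell markers and none of 73 myeloid markers was a liver gene. Liver genes were 478 of all 19995 genes, so lists of these sizes would hold few at that share. The spleen-only B cell markers were Tcf4, the transcription factor Mef2c (12), the class II transactivator Ciita (5) and the kinase Pik3cd (4). The spleen-only myeloid markers were the calcium-binding proteins S100a8 (6) and S100a9 (3), the adhesion molecule Vcam1 (6) and the heme oxygenase Hmox1 (4). T and NK cell markers gave 2 spleen-only genes (Il6st and Runx1, with 6) and the shared gene Ets1 of 64. Erythroid and megakaryocyte genes gave 3 spleen-only genes of 74, the beta globin Hbb-b2 (6), Lmo2 (5) and Fam46c (5), and 1 liver-only gene, the ferrochelatase Fech (5). These lists reached the minimum in 4.69% to 7.02% of their members, which is nearer to the 3.84% of all genes than the hepatocyte lists were. Endothelial and stromal markers were split, with Dcn (16), Fn1 (8), Reln (6) and Flt4 (3) in the liver and Mef2c, Acta2 (7) and Vim (5) in the spleen, of 75 (9.33%).

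Genes of general cell functions were found on both sides, several at a share close to the 3.84% of all genes. Cytoplasmic ribosomal proteins were spleen-only in 4 of 112 genes, a share of 3.57% (among them Rplp1 with 4, and Rpl8 and Rps20 with 3 each). Actin and adhesion genes gave 4 liver-only, 7 spleen-only and 2 shared genes of 101 (12.9%), and the list of histones and chromatin regulators gave 2, 5 and 2 of 100 (9%). That list holds only some histone genes and not the 4 spleen-only ones described later. The immediate-early and feedback regulators gave 12 liver-only genes, 6 spleen-only genes and 1 shared gene (Sgk1, 5 and 3) of 90 (21.1%). After Errfi1 the liver ones were led by Herpud1 (8), and the spleen ones by Ier2 (7). Interferon-inducible genes gave 3, 1 and 1 of 64 (7.81%), the shared one being Trim25. RNA-binding genes gave 12, 4 and 1 of 221 (7.69%), with Rbm47 (10) in the liver, the Argonaute gene Eif2c3 (7) in the spleen and the splicing regulator Mbnl1 shared. Solute carriers gave 10, 5 and 0 of 348 (4.31%), the ubiquitin system 7, 1 and 2 of 289 (3.46%), and the respiratory chain 3, 1 and 1 of 99 (5.05%). Zinc finger genes gave 7, 10 and 2 of 381 (4.99%), small GTPases and their regulators 7, 1 and 2 of 227 (4.41%), and kinases and phosphatases 13, 9 and 0 of 300 (7.33%). In all, 267 of the 767 genes belonged to a list or family.

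**Figure D2:**
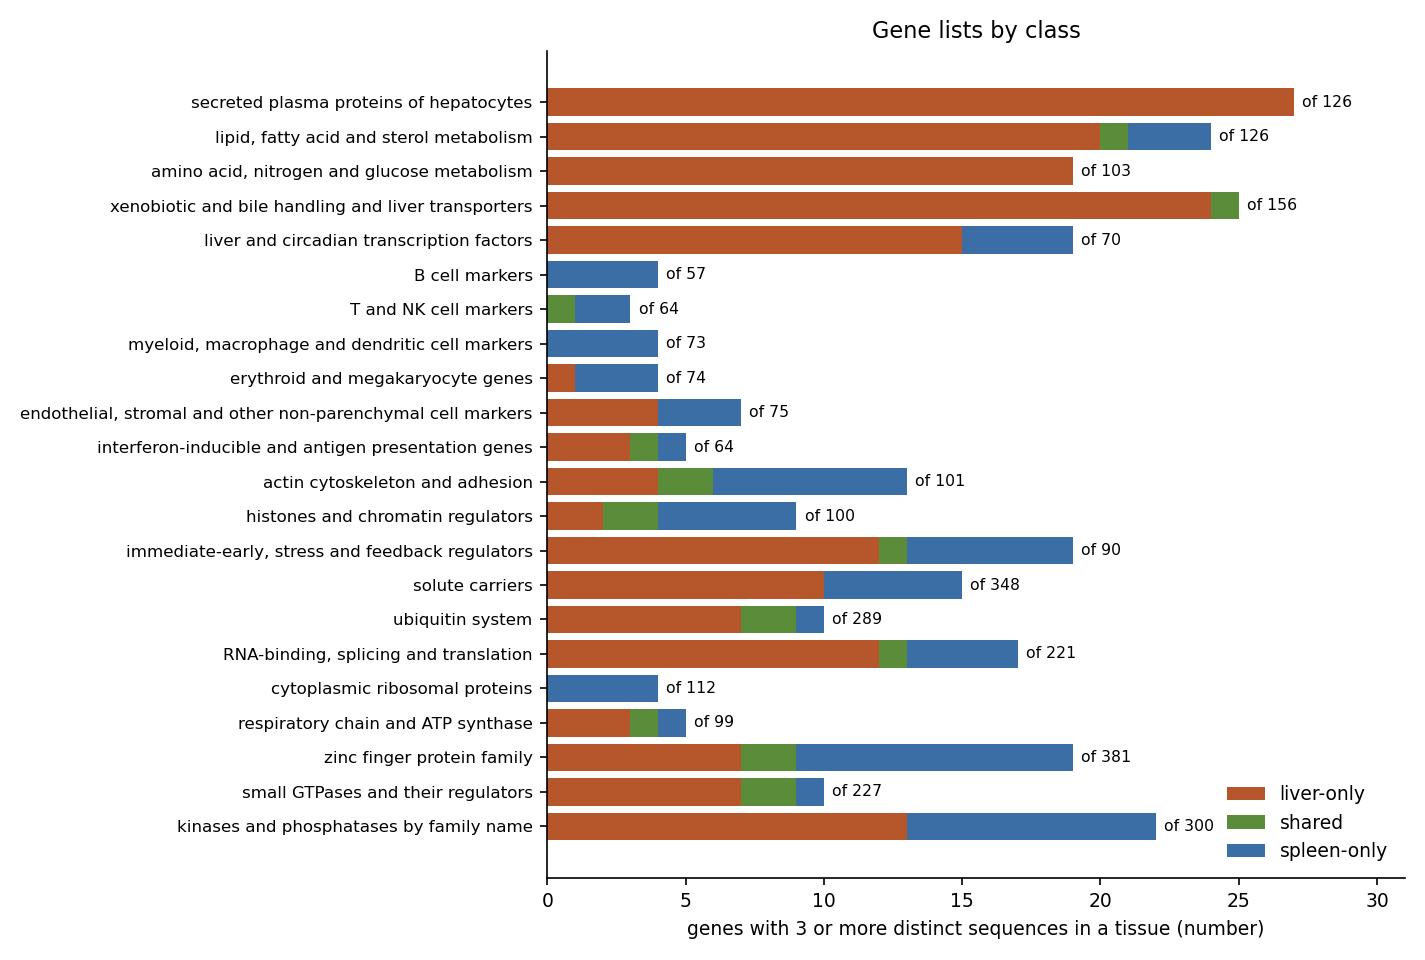
Genes of each list or family with 3 or more distinct sequences in a tissue (number on the horizontal axis), split into liver-only (orange), shared (green) and spleen-only (blue); the label gives the members with a 3' UTR. The hepatocyte protein and amino acid lists hold liver-only genes alone (27 and 19), and the B cell and myeloid lists hold 4 spleen-only genes each.

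The 51 shared genes spanned a wide range of ratios. Trim25, an interferon-inducible ubiquitin ligase of antiviral RNA sensing, held 91 liver and 90 spleen sequences, the most of any shared gene. Its liver to spleen ratio of list shares was 0.603 (exact 95% interval 0.446 to 0.816). 4933403F05Rik held 67 and 21, for a ratio of 1.90 (1.15 to 3.27). Hist1h1c, a linker histone H1 gene, held 10 and 75, and its share was 12.6-fold higher in the spleen (6.47 to 27.3). Mbnl1, which controls alternative splicing, held 15 and 49, and its list share was 5.48-fold higher in the spleen (3.02 to 10.5). Dnmt3a, a de novo DNA methyltransferase, held 10 and 21, and its list share was 3.52-fold higher in the spleen (1.59 to 8.37). The lymphoid transcription factor Ets1 held 4 and 23, and its list share was 9.64-fold higher in the spleen (3.29 to 38.3). By library totals only Hist1h1c of these genes kept an interval wholly higher in the spleen.

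In other shared genes the interval was wide. Tnrc6b, a partner of Argonaute in microRNA silencing, held 16 and 14, with a ratio of 0.682 (0.312 to 1.51), and AI464131 held 12 and 10, with a ratio of 0.716 (0.283 to 1.85). Among the 31 shared genes with 10 or more sequences in all, the highest ratio was that of D19Wsu162e (16 and 3, ratio 3.18, 0.911 to 17.0), followed by Elovl5 at 1.99. The lowest after Hist1h1c and Ets1 were Marcks, an actin-binding kinase substrate, and the zinc finger gene Zfp12, each with 3 and 13 and a ratio of 0.138 (0.0252 to 0.501). The median ratio was 0.596, with 8 genes above 1 and 43 below. A gene with equal numbers of sequences in both tissues has this ratio, since the liver list is 1.68 times as long. A ratio below 1 therefore need not mean more spleen than liver sequences. The interval held 1 in 41 genes, lay below 1 in 9 (Trim25, Hist1h1c, Mbnl1, Dnmt3a, Ets1, Marcks, Zfp12, Aff1 and Elk4) and above 1 in 1, 4933403F05Rik. By library totals the median ratio was 2.0 and 37 genes were above 1, the interval lay above 1 in 10 genes, and it lay below 1 in Hist1h1c alone. Hist1h1c was thus higher in the spleen, and 4933403F05Rik higher in the liver, under both totals.

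Each Miwi2-/- list holds only sequences inside clusters of the same WT tissue, so the pair bears on a tissue difference in shared genes alone. In these genes they held 68 liver and 94 spleen sequences, and 36 of the 51 genes had at least 1 of them. Hist1h1c had 0 sequences in Miwi2-/- liver and 32 in Miwi2-/- spleen, Trim25 had 7 and 15, and Mbnl1 7 and 10. 4933403F05Rik had 9 and 1, and Dnmt3a 5 and 4. In these libraries Hist1h1c had more sequences in the spleen and 4933403F05Rik more in the liver. The leading liver-only genes were listed in Miwi2-/- liver too, Scd1 with 34 sequences, Errfi1 with 14 and Alb with 10, and Etnk1 and Ubn2 had 3 each in Miwi2-/- spleen.

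In shared genes, the sequences of both tissues often lay at the same places. Liver sequences overlapped a spleen sequence in 48.7% of cases (44.1 to 53.4, n = 439), and spleen sequences overlapped a liver sequence in 51.6% (47.4 to 55.8, n = 537). The midpoints of 43.5% of the liver sequences fell on bases covered by spleen sequences, which made up 5.07% of these 3' UTRs. In the other direction 47.9% of the spleen midpoints fell on the 4.86% of bases covered by liver sequences. Without Trim25 the midpoint shares were 36.5% and 40.7%, on 4.64% and 4.35% of the bases. The midpoint shares weigh genes by their number of sequences and the shares of bases do not. The part of these weights in the gap was not tested. An overlapping pair was present in 37 genes and absent in 14, among them Aff1, Elovl5 and Tnrc6a, chosen after their values were seen. The same 5' end was shared by 23.2% of the liver and 24.0% of the spleen sequences of shared genes. Sequences of a gene overlap one another and are not independent.

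Identical sequences were found in 11 of the shared genes, 50 in all. This is 11.4% of what the liver list holds in shared genes and 9.31% of what the spleen list holds. Trim25 had 15, 4933403F05Rik 9, AI464131 6 and Mbnl1, Hist1h1c and Fam53c 4 each. In Trim25 72 of 91 liver sequences and 76 of 90 spleen sequences overlapped the other tissue, and the median midpoints, 2183 nt (liver) and 2184 nt (spleen) from the stop codon, nearly coincided. In AI464131 11 of 12 liver sequences and all 10 spleen sequences fell on a single stretch around 1125 nt, from which the sequence shown above was taken. In Mbnl1 11 of 15 liver and 28 of 49 spleen sequences overlapped the other tissue, but the median midpoints were apart, at 2299 nt for the liver and 979 nt for the spleen.

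**Figure D3:**
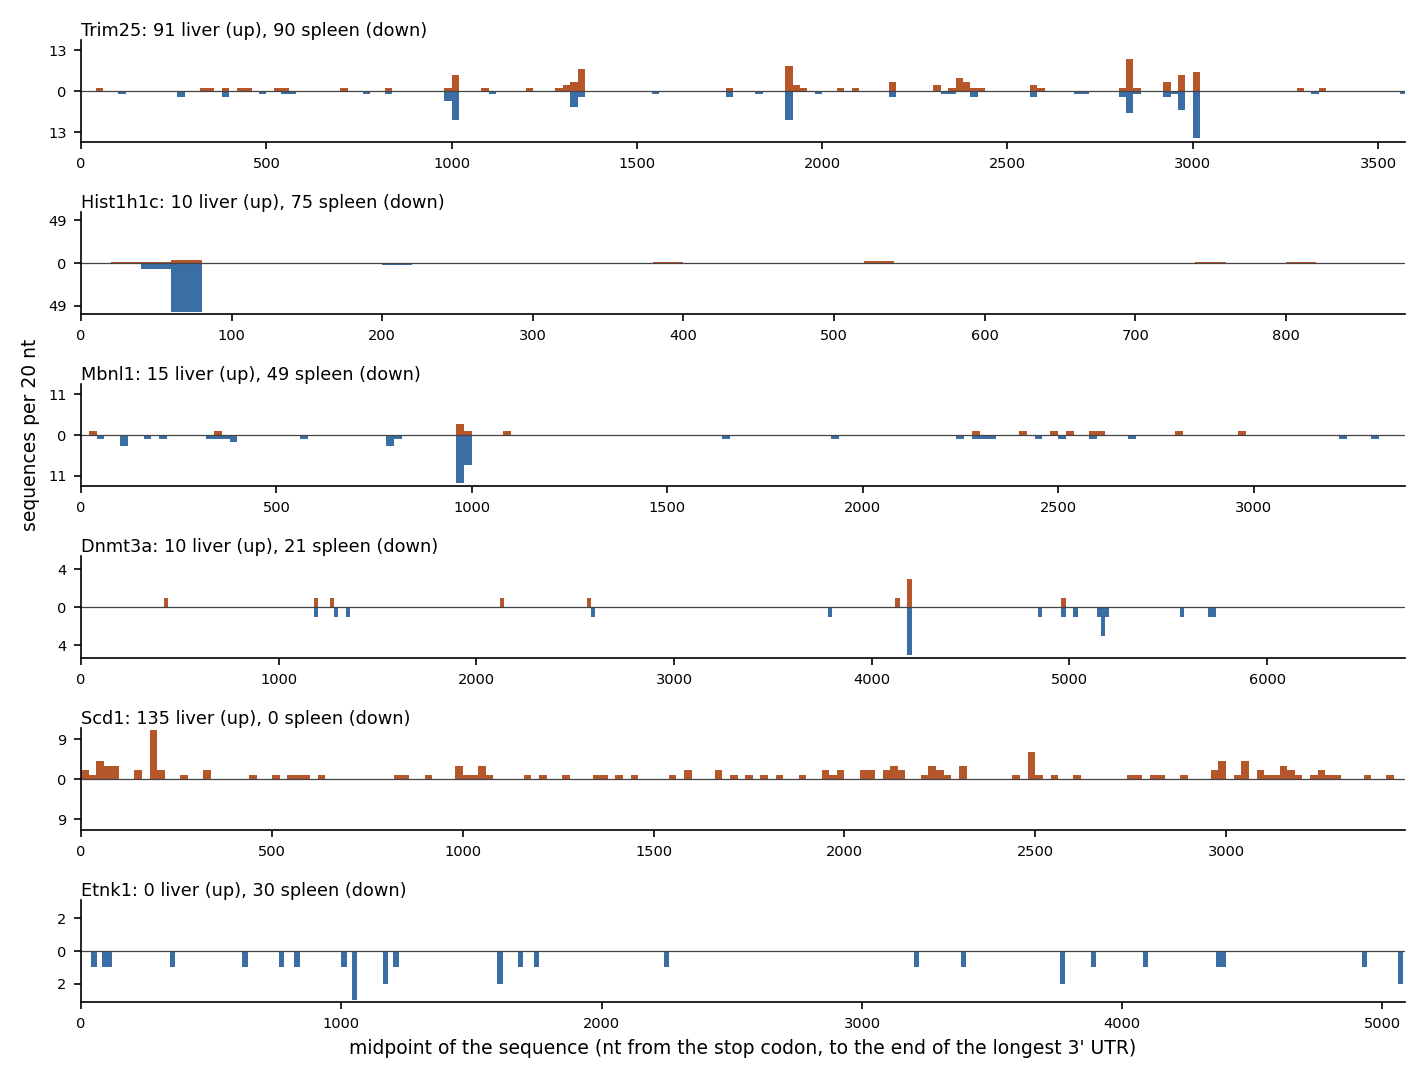
Midpoints of the sequences along the longest 3' UTR of 6 genes, in nt from the stop codon, as the number of sequences per 20 nt, with liver in orange above the line and spleen in blue below. Trim25 shows stacks at the same places in both tissues, the spleen sequences of Hist1h1c pile up in the first 100 nt, and the 135 liver sequences of Scd1 and the 30 spleen sequences of Etnk1 spread over the whole 3' UTR.

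The Hist1h1c sequences sat beside a histone stem-loop. Replication-dependent histone mRNAs end in a conserved stem-loop rather than a poly(A) tail, and their precursors are cut a short way after it. The 3' UTRs were searched on the gene's strand for GGCTCT, any 4 bases and AGAGCC, or GGCCCT, any 4 bases and AGGGCC, a search added after the positions in Hist1h1c were seen. This arrangement was present in 51 of 19995 3' UTRs (0.255%) and in 6 of the 767 genes (0.782%). Of these 6 genes 5 were histone genes. The stem-loops of these 5 genes are shown with the paired stem in capitals.
Hist1h1c, chr13:23831381-23831396, plus strand: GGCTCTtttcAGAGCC
Hist1h3a, chr13:23853759-23853774, minus strand: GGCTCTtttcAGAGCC
Hist1h3g, chr13:23627758-23627773, plus strand: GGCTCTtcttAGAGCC
Hist1h4a, chr13:23852669-23852684, minus strand: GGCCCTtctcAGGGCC
Hist1h4h, chr13:23623327-23623342, plus strand: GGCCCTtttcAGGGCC

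In Hist1h1c the stem-loop spans nt 25 to 40 after the stop codon. Of the 75 spleen sequences, 62 began between 6 and 18 nt after its last base, at nt 46 to 58, with a median length of 25 nt, and none touched the stem-loop. The liver list had 4 of 10 Hist1h1c sequences in the same place, 10 to 14 nt after it. The other 4 histone genes were spleen-only. All 3 sequences of Hist1h3a, 4 of 5 of Hist1h3g, all 3 of Hist1h4a and 3 of 4 of Hist1h4h began within 20 nt after the stem-loop. Together 75 of the 90 spleen sequences of these 5 genes (83.3%) began there, 62 of them in Hist1h1c, whose positions prompted the search. In the Miwi2-/- spleen list 38 of 45 (84.4%) began there, 27 of them in Hist1h1c at 6 to 17 nt. Those of Hist1h3g began at 9 to 19 nt. The sixth gene, Bap1, had 3 spleen sequences and none of them began there. Histone genes are a family of near copies, so only sequences with a unique place were kept and the numbers per gene are uncertain. The lists give no strand of the RNA itself, so antisense RNAs at these places cannot be told apart from sense ones. Hist1h2bc, with 6 liver and 0 spleen sequences, had no such stem-loop in its annotated 3' UTR.

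By the longest isoform, genes of all 3 classes had longer median 3' UTRs than protein-coding genes at large. The median length of the longest isoform was 1807 nt in liver-only genes (quartiles 951 and 3131), 2091 nt in spleen-only genes (1213 and 3156) and 2865 nt in shared genes (1718.5 and 3794), against 834 nt in all 19995 genes (304 and 1782). A 3' UTR under 500 nt was found in 12.4% of liver-only, 7.27% of spleen-only and 3.92% of shared genes, against 36% of all genes. The minimum of 3 sequences and the authors' limit on density per kb both depend on length, and their part in these differences was not tested.

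Length was set beside the number of sequences in each class, without a test. In spleen-only genes the median 3' UTR length was 1798 nt with 3 to 5 sequences, 3235.5 nt with 6 to 9 and 4616 nt with 10 or more. In liver-only genes it was 1809, 1867 and 1754 nt. The 27 liver-only plasma protein genes had a median of 257 nt, close to the 266 nt of all 126 members of that list, and they held 336 sequences. Among the shortest 3' UTRs were those of Sod1 (65 nt) in the liver, Rpl8 (39 nt) and Rplp1 (40 nt) in the spleen, and Atp5a1 (487 nt, 8 liver and 3 spleen sequences) among shared genes. The longest were those of Onecut2 (14356 nt) and Zfp704 (11776 nt) in the liver, Lpp (13255 nt) and Eif2c3 (12742 nt) in the spleen, and Tnrc6b (11610 nt) and 4933403F05Rik (8532 nt) among shared genes. The shortest isoform gave medians of 1040, 1069 and 879 nt for the 3 classes, so shared genes were longest by the longest isoform and shortest by the shortest one. For the shortest isoform no median of all protein-coding genes was computed.

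**Figure D4:**
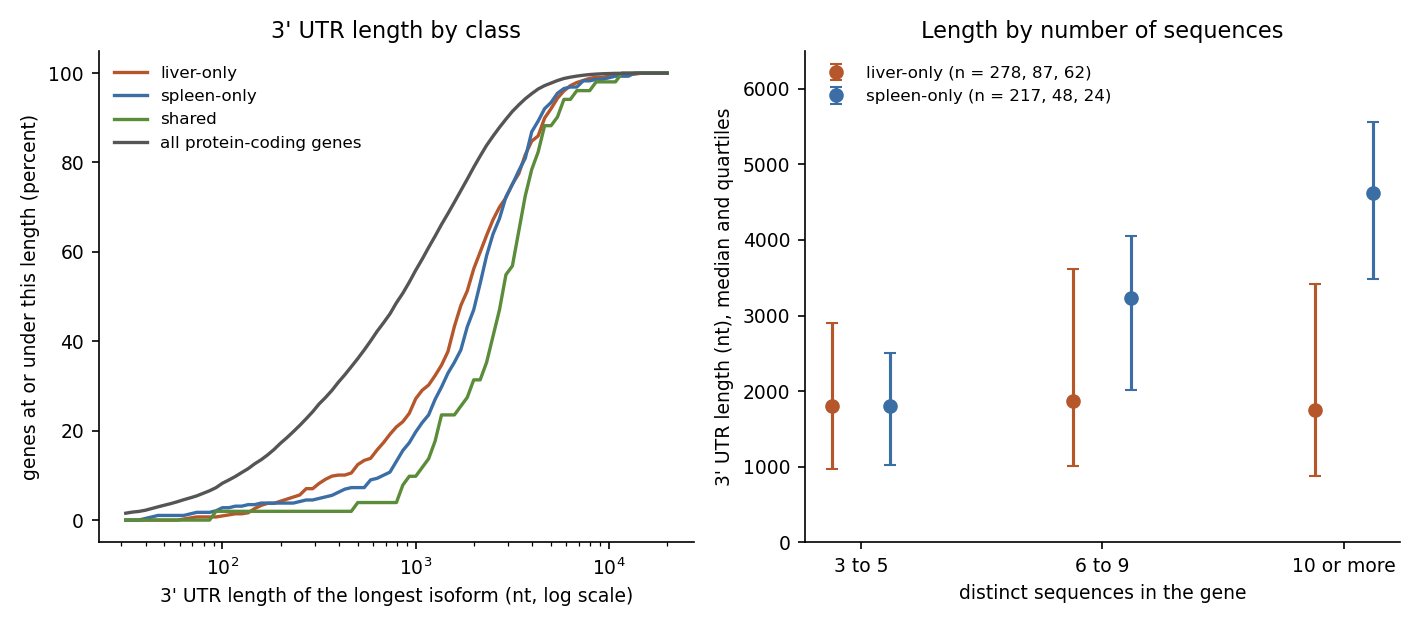
3' UTR length. The left panel gives the percent of genes at or under each length (log scale) for the 3 classes and all protein-coding genes, whose curve lies to the left of the other 3. The right panel gives the median (points) and quartiles (bars) of the length by the number of sequences in the gene, and the spleen-only median goes from 1798 to 4616 nt while the liver-only median stays between 1754 and 1867 nt.

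Sequences were found along the whole 3' UTR. In the liver 32.8% of midpoints lay in the first, 30.7% in the middle and 36.5% in the last of 3 equal parts of the 3' UTR (n = 3287 with a position in the longest isoform). In the spleen these shares were 37.6%, 28.8% and 33.6% (n = 1989). Hist1h1c moved the spleen shares, which were 35.5%, 29.7% and 34.8% without it. The last decile of the 3' UTR held the most sequences in both tissues, 14.5% of liver and 13% of spleen midpoints.

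The share of sequences at the end of the 3' UTR depends on its length, since a fixed window is a larger part of a short 3' UTR. The last 100 nt held 15.9% (14.7 to 17.2) of liver midpoints and 10.6% (9.33 to 12) of spleen midpoints. In 3' UTRs of 1000 nt or more the shares were 7.74% (6.74 to 8.87) and 6.92% (5.81 to 8.23), and the intervals overlap. Near this end lies the polyadenylation signal, whose usual form is AATAAA. Searched on the gene's strand, AATAAA was present in 6.4% of the liver sequences (5.62 to 7.28) and 5.67% of the spleen sequences (4.74 to 6.76). Of all windows of the same lengths in the same 3' UTRs, 1.72% and 1.63% held it. The windows were pooled over genes, so long 3' UTRs weigh most in them. In the shares of sequences, genes with many sequences weigh most. The part of these weights in the gap was not tested. Within the last 100 nt it was present in 29.0% of liver sequences and 33.2% of spleen sequences, and no share of windows was computed there. Such sequences came from 132 of 478 liver genes and 79 of 340 spleen genes, and the printed sequence of Il6st, nt 39 after the stop codon, shows that the letters also occur far from the end.

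**Figure D5:**
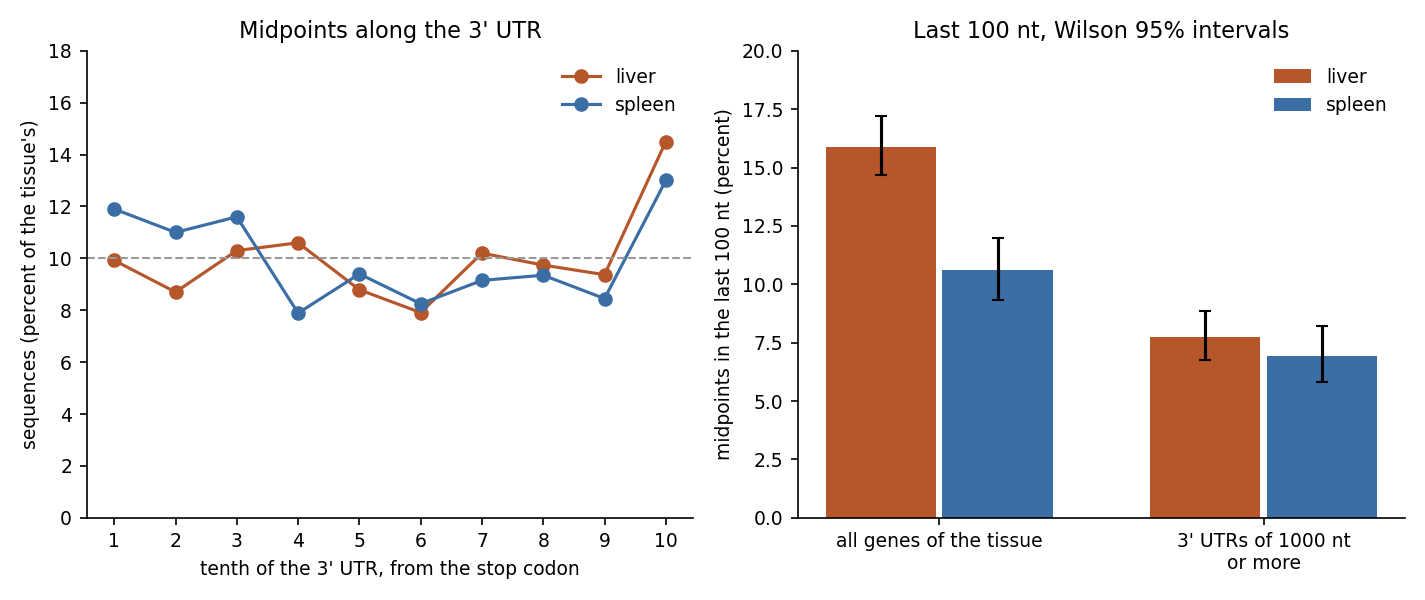
Position of sequences in the 3' UTR. The left panel gives the percent of each tissue's midpoints in each decile of the 3' UTR from the stop codon, with a dashed line at an even 10%, and the last decile is highest at 14.5% (liver) and 13% (spleen). The right panel gives the percent in the last 100 nt with Wilson 95% intervals, for all genes of a tissue and for 3' UTRs of 1000 nt or more, where the tissues come close (7.74% and 6.92%).

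The sequences of the tissues differed in length and were alike in their ends. Sequences of 27 nt or longer made up 31.1% (29.6 to 32.7) of the liver and 21.9% (20.1 to 23.7) of the spleen sequences, and those of 21 to 25 nt made up 56.0% and 62.5%. Both tissues had their mode at 23 nt. Within the shared genes the long share was 29.2% (25.1 to 33.6) in the liver and 24.0% (20.6 to 27.8) in the spleen, so the intervals overlap there. The part of the size selection in this difference was not tested.

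The last base was A in 86.0% of liver and 85.4% of spleen sequences, although A made up 26.6% and 26.5% of the bases of these 3' UTRs. In 44.7% (43.0 to 46.4) of the liver and 45.0% (42.8 to 47.2) of the spleen sequences that A did not match the genome, as in the printed sequences of Alb, Il6st and Setd7. The authors ligated a 3' adapter and trimmed it from the reads with mismatches allowed. Whether adapter bases remained at these ends, and so in the lengths, was not tested. The unmatched A was less frequent in shared genes, 36% (31.6 to 40.6) in the liver and 41.3% (37.3 to 45.6) in the spleen, than in liver-only genes (46.0%, 44.2 to 47.8) and spleen-only genes (46.3%, 43.8 to 48.9). These intervals treat sequences as independent, although those of a gene overlap one another. Trim25 alone held 91 of the 439 liver sequences of shared genes. A difference between the classes was not tested. The first base was A in 39.1% of liver and 42.5% of spleen sequences and T in 35.3% and 33.2%, with the direction taken from the gene.

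The Mir21 gene lies in the annotated 3' UTR of Vmp1 on chromosome 11 and was kept apart. It gave 214 liver sequences, 5.01% of that list (4.39 to 5.70), and 213 spleen sequences, 8.09% (7.11 to 9.19). Of these, 161 were identical in both lists, 75.2% of the liver and 75.6% of the spleen set, against 51 identical sequences in the rest of both lists. The seed of miR-21a-5p was present in 166 liver and 165 spleen sequences. The mature sequence is that of RefSeq (GRCm38.p6), with the seed, bases 2 to 8, in capitals, and is shown because most of these sequences hold its seed.
mmu-miR-21a-5p: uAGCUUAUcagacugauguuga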

How the data were processed

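Small RNAs were sequenced by the authors from 4 libraries, 1 per tissue and genotype. Per the labels RNA of about 24 to 31 nt was cut from a gel, and the methods give about 22 to 35 nt. The authors trimmed adapters, merged duplicate reads, took out annotated non-coding RNAs including miRNAs, aligned to mm9 with Bowtie and assigned features with bedtools (CASAVA 1.8 and cutadapt are named in the submitters' processing notes). They kept clusters by a density in the 3' UTR relative to the coding region, a minimum number of small RNAs and a limit per kb and depth. What the authors deposited is, per library, a list of distinct sequences in such clusters, without read counts, and the cluster regions of the WT tissues. Depth in reads is therefore not in the lists, and library totals were read from the study's supplement.

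All sequences were placed on NCBIM37 (the same assembly as mm9) with at most 1 mismatch by a program in Python 3.11.15 (numpy 2.4.6, numba 0.67.0), tested on simulated sequences, and every listed sequence had a single best place. All are written on the plus strand of the genome, so the direction was taken from the gene. The 3' UTRs are those of GENCODE M1, with at least 50% overlap. Positions were counted from the stop codon in the longest isoform. Ratios are of list shares outside Mir21 with exact Clopper-Pearson intervals, shares have Wilson 95% intervals (scipy 1.17.1), and numbers under a floor of 3 were set to 3. No test between the tissues was run, since there is 1 library each. Figures were drawn with matplotlib 3.10.9.

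Genes named are, per class, the 8 with the most sequences, the 4 highest and 4 lowest ratios among shared genes with 10 or more sequences, up to 4 members per list, the 2 longest and 2 shortest 3' UTRs, and the 4 shared genes with the most identical sequences. Further list members (such as Abca1, Lipa, Cyb5, Foxo1 and Reln), named to complete a small class of a list, and the histone genes with a stem-loop were chosen after their values were seen. A few genes that this rule names are not reported here. The members and the lists were chosen with earlier results of these data known. Alternatives varied the minimum, the mismatch, the overlap, the 3' UTR definition, the length of the sequences, the scaling, the fold and the weights.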

Additional observations from a re-analysis of the deposited data

How the results depend on the processing

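The results were recomputed under 21 other settings, of which 3 (without Hist1h1c, without Trim25, and 3' UTRs of 1000 nt or more) were chosen after seeing the data; 114 values stayed within their limits and 63 moved. Nothing moved with a minimum of 1 sequence, an overlap of at least 90%, sequences of 21 nt and longer, the 3'-terminal A left out, 0 sequences required in the other tissue, or equal weight per gene. The settings with a minimum of 1 and with 0 in the other tissue could change little, since the cluster filter had already removed sparse genes. A minimum of 5 sequences gave 224 liver and 146 spleen genes (209 liver-only, 131 spleen-only, 15 shared), median 3' UTRs of 2950 nt (spleen-only) and 3887 nt (shared), and overlap with the other tissue in shared genes of 58.1% (liver) and 68.7% (spleen). A minimum of 10 gave 73 and 36 genes (66, 29 and 7), medians of 4428 and 3572 nt, 32 genes past the fold in the spleen, and overlap of 64.3% and 74.6%. Sequences without a mismatch gave 205 and 120 genes (189, 104 and 16), medians of 2803.5 and 3547 nt, 6 and 20 genes past the fold, and spleen overlap of 68.3%. Sequences of 27 nt and longer gave 114 and 42 genes (111, 39 and 3), a spleen-only median of 3431 nt, 3 and 14 genes past the fold, 34.6% of liver midpoints at the 3' end (the last of 3 equal parts), and overlap of 59.4% and 45.7%. The authors' cluster regions gave medians of 2229 nt (liver-only) and 3720 nt (shared), 24.8% of liver midpoints at the 3' end and spleen overlap of 44.4%, and added downstream steps of 2 kb gave spleen overlap of 45.2%. Mir21 included gave 40.4% (liver) and 40% (spleen) at the 3' end and overlap of 65.2% and 65.0%. Genes past the fold numbered 212 (liver) and 4 (spleen) by library totals, 53 and 208 at 2-fold, and 13 and 37 at 5-fold. The shortest isoform gave medians of 1040, 1069 and 879 nt for liver-only, spleen-only and shared genes. Merged blocks gave 34.7% of the liver at the 3' end, and 3' UTRs of 1000 nt or more gave 34.9%. Spleen overlap was 45.5% without Hist1h1c, and without Trim25 overlap was 40.8% (liver) and 45.0% (spleen). The cause of these shifts was not tested. Downstream steps were not run for 3' UTR length and position. No paired analysis was possible because the WT comparison has 1 library per tissue, no source used here says that liver and spleen came from the same mouse, and each Miwi2-/- list was limited to clusters of its WT tissue.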
